A study of Mus musculus with 6 samples.

Results

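Potassium channels of the heart end the action potential and hold the resting potential, and their transcripts were measured here in hearts of mice that had lost MRPS5 from cardiomyocytes, a protein that the mitochondrial ribosome needs in its small subunit. The 9 subunit genes Kcnd2, Kcnd3, Kcnip2, Kcna5, Kcnq1, Kcnh2, Kcnj2, Kcnj3 and Kcnj11 were taken by name from the 54532 genes of the deposited table. All 9 were found, and all 9 passed the filter on low values (a mean of at least 0.5 FPKM, fragments per kilobase of gene scaled to library size), which 12944 genes passed.

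RNA came from 6 mouse hearts, 3 in each group. Ctrl hearts were Mrps5 fl/fl, with both Mrps5 alleles flanked by loxP sites. The cKO hearts were Mrps5 fl/fl; MCM and so carried MerCreMer in addition, a Cre recombinase under the cardiomyocyte promoter αMHC that acts only once tamoxifen is present. Mice of both groups received tamoxifen by intraperitoneal injection at 45 mg/kg/day for 5 days from 8 weeks of age, and by the labels hearts were taken 12 weeks later, although the study's methods give the age of the mice differently. The Ctrl mice had no MCM transgene, so that effects of Cre itself and of the loss of Mrps5 cannot be told apart. Recombination was directed to cardiomyocytes only, and the study's methods describe the tissue as ventricular.

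The pore of a potassium channel is built from alpha subunits that share a selectivity filter, the short stretch that lets potassium pass and keeps sodium out. Voltage-gated (Kv) subunits open on depolarisation and carry the transient outward current (Kcnd2, Kcnd3), the ultrarapid delayed rectifier (Kcna5), the slow delayed rectifier (Kcnq1) and the rapid delayed rectifier (Kcnh2). Inward rectifier (Kir) subunits pass current near the resting potential and include the classical Kir2 channels (Kcnj2), channels opened by acetylcholine (Kcnj3) and channels closed by ATP (Kcnj11). Kcnip2 encodes KChIP2, a cytosolic calcium-binding subunit that lacks a pore and promotes surface expression of Kcnd2 and Kcnd3 channels. In the mouse ventricle, repolarisation rests mainly on the transient outward and other Kv currents, and the delayed rectifiers that dominate in large mammals contribute little.

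The coding sequence around the filter, given for 7 members, shows how they are related. Of the gene pairs compared below as ratios, it covers both genes only for Kcnd2 and Kcnd3. Each line holds 36 bases, 5′ to 3′, from a GENCODE M21 transcript (GRCm38), with the 5 codons of the filter in capitals.
Kcnd2: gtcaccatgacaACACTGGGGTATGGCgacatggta
Kcnd3: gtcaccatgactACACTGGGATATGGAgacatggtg
Kcna5: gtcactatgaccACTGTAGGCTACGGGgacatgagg
Kcnh2: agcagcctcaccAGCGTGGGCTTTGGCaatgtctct
Kcnj2: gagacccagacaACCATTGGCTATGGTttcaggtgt
Kcnj3: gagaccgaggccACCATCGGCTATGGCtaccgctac
Kcnj11: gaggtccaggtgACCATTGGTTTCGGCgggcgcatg
Kcnd2 and Kcnd3 had 32 of 36 bases in common, the most of any pair shown, and Kcnj11 and Kcnh2 the fewest, 13 of 36. Of the 5 filter codons, the one before the last was TAT or TAC (tyrosine) in 5 of these members and TTC or TTT (phenylalanine) in Kcnj11 and Kcnh2. Kcnip2 had no such stretch in its reading frame. In their longest transcripts, Kcnd2 and Kcnd3 shared no stretch of 50 bases with each other or with another gene, so their reads could be told apart.

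The libraries held 15989322 to 24875499 reads in genes. Mrps5 measured 5.20, 6.45 and 6.33 FPKM in replicates 1, 2 and 3 of Ctrl, against 1.12, 1.23 and 1.31 FPKM in those of cKO, so the labels and the deleted gene matched. In cKO replicate 2 the 4 Y-linked genes examined (Ddx3y, Eif2s3y, Kdm5d, Uty) were listed at 0 and Xist was at 10.7 FPKM, while the other 5 hearts had Y-linked means of 7.61 to 8.79 FPKM, and the methods describe all mice as male. The 10 ventricular cardiomyocyte markers (Myl2, Tnni3 and others) were present in every heart, none of them at 0. Their summed level was 17622 to 22372 FPKM in Ctrl and 10949 to 18518 FPKM in cKO hearts, with 5 of 10 lower, 0 higher and a median log2 fold change of -0.59. Fewer cardiomyocytes and less RNA per cardiomyocyte cannot be told apart in such bulk tissue, and the part of either in the differences reported here was not tested. Atrial markers differed between hearts of the same group (8 tested, 0 passed). Their summed levels were 132 to 2131 FPKM in Ctrl and 581 to 1725 FPKM in cKO hearts, and Bmp10 among them reached 0 in a heart. Nppa, also among the 8, measured 1062, 144 and 103 FPKM in replicates 1, 2 and 3 of Ctrl, against 469, 1127 and 938 FPKM in those of cKO. The paper uses Nppa as a marker of hypertrophy that was raised in cKO hearts, so this sum need not measure atrial tissue alone.

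Most of these subunit genes were lower in cKO hearts. By limma on log2(FPKM + 1) with p-values adjusted after Benjamini and Hochberg over the 12944 genes, 7 of the 9 were lower in cKO and 0 were higher, where 17.0% of all genes were lower and 16.3% higher (33.3% in either direction). For 8 of the 9 every cKO heart was below every Ctrl heart, which held for 26.4% of all genes, and the reverse held for 24.8% of all genes and for 0 of the 9. The median log2 fold change was -0.96 for the 9 subunit genes and -0.02 for all genes. The summed level of the 9 was 170, 167 and 161 FPKM in Ctrl and 81.2, 102.5 and 104 FPKM in cKO hearts, group means of 166 ± 4.46 and 96.1 ± 12.9 FPKM (SD, n = 3 each). The count of 7 depended on the hearts included, most on Ctrl replicate 1. With that heart left out 4 members were lower (Kcnd2, Kcnj2, Kcnh2 and Kcna5), and the same 4 were left when no filter on low values was applied. Fewer of all genes were lower there too, 12.0% without Ctrl replicate 1 and 6.26% without the filter. The count was 5 without Ctrl replicate 3 or cKO replicate 1, and 6 without Ctrl replicate 2 or cKO replicate 3. In those 4 fits 11% to 13.6% of all genes were lower. Without cKO replicate 2 the count was 7 as in the main fit, with Kcnj11 past the threshold and Kcnj3 not.

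**Figure D1:**
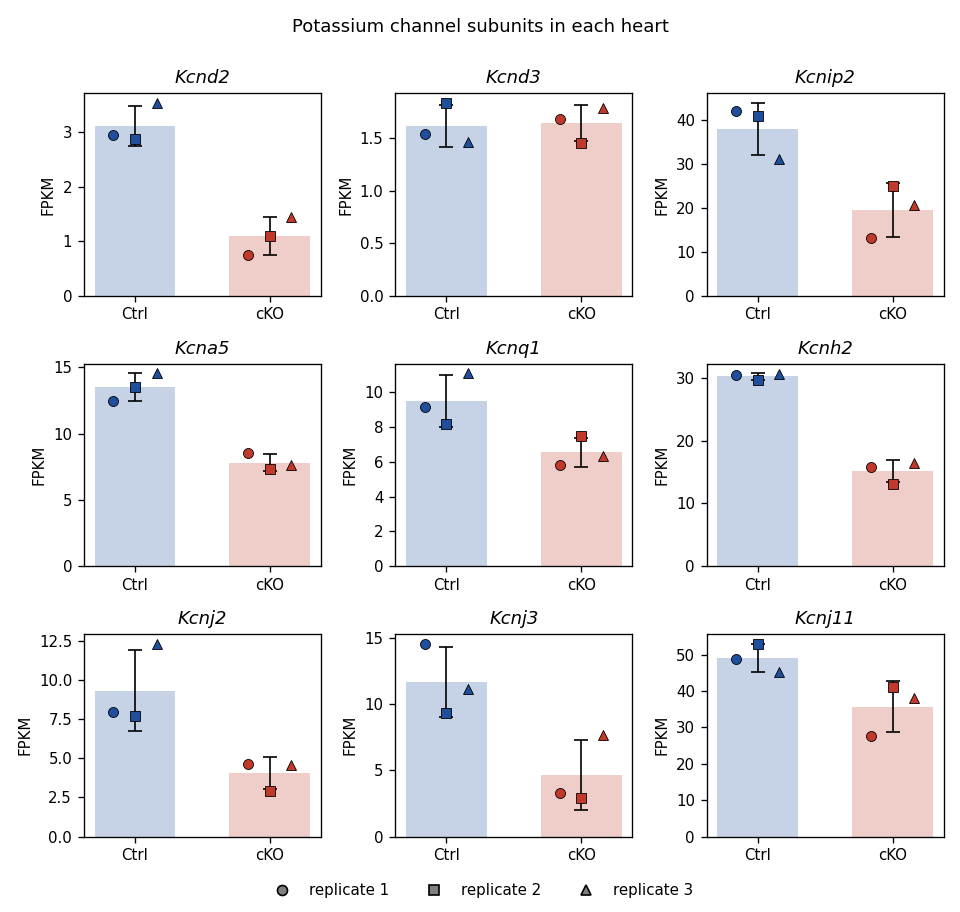
FPKM of the 9 potassium channel subunits (y axes, each from 0) in Ctrl and cKO hearts. Bars are means of 3 hearts, error bars are SD and symbols are single hearts; the cKO hearts lie below all Ctrl hearts in every panel but Kcnd3, where the means are 1.61 and 1.64 FPKM.

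In Ctrl hearts the order of levels per length was Kcnj11 (49.0 ± 3.89 FPKM), Kcnip2 (37.9 ± 5.92), Kcnh2 (30.2 ± 0.530), Kcna5 (13.5 ± 1.04), Kcnj3 (11.7 ± 2.67), Kcnq1 (9.49 ± 1.48), Kcnj2 (9.32 ± 2.60), Kcnd2 (3.12 ± 0.365) and Kcnd3 (1.61 ± 0.196). The values of Kcna5 and Kcnj3, of Kcnj3 and Kcnq1 and of Kcnq1 and Kcnj2 overlapped between hearts, so these neighbours did not differ beyond their spread. The order in cKO hearts was Kcnj11 (35.7 ± 7.03 FPKM), Kcnip2 (19.5 ± 6.06), Kcnh2 (15.1 ± 1.74), Kcna5 (7.82 ± 0.627), Kcnq1 (6.54 ± 0.852), Kcnj3 (4.64 ± 2.65), Kcnj2 (4.05 ± 1.00), Kcnd3 (1.64 ± 0.172) and Kcnd2 (1.10 ± 0.353). There the values of Kcnip2 and Kcnh2, of Kcna5 and Kcnq1, of Kcnq1 and Kcnj3 and of Kcnj3 and Kcnj2 overlapped. Kcnd2 and Kcnd3 changed places at the bottom of the order, and the first 4 genes kept theirs.

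Of the transient outward current genes, Kcnd2 and Kcnip2 were lower and Kcnd3 did not pass the threshold. Kcnd2 (ENSMUSG00000060882, chromosome 6, 21215503 to 21729805, plus strand, GRCm38), which encodes the Kv4.2 pore subunit, measured 2.94, 2.87 and 3.54 FPKM in replicates 1, 2 and 3 of Ctrl, against 0.745, 1.10 and 1.45 FPKM in those of cKO. All cKO hearts lay well below all Ctrl hearts, with cKO replicate 1 lowest. The cKO mean was 35.2% of the Ctrl mean, the lowest share among the 9 members. The log2 fold change on the log2(FPKM + 1) scale was -0.98 (SE 0.137, 95% interval -1.31 to -0.66, limma adjusted p = 0.00320), and this scale understates the change of a gene at so low a level: voom on the recovered reads gave -1.48. The depth behind the gene was 289 to 441 reads in Ctrl and 65 to 188 reads in cKO hearts.

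Kcnd3 (ENSMUSG00000040896, chromosome 3, 105452330 to 105674002, plus strand), which encodes the closely related Kv4.3, did not pass the threshold. It measured 1.54, 1.84 and 1.47 FPKM in the Ctrl hearts, against 1.68, 1.45 and 1.79 FPKM in the cKO hearts. The groups overlapped. The log2 fold change was 0.02 (95% interval -0.20 to 0.23, adjusted p = 0.910), and its sign turned without Ctrl replicate 1, Ctrl replicate 3 or cKO replicate 3, to -0.0042, -0.025 and -0.024. The interval does not reach the change of Kcnd2. Of its exonic bases, 1.72% lie under the opposite-strand transcript Kcnd3os (0.294 to 0.733 FPKM), and whether counting used the strand is not given in the sources used here.

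Within each heart the Kcnd2 to Kcnd3 ratio was 1.91, 1.57 and 2.41 in Ctrl and 0.443, 0.756 and 0.812 in cKO. Kcnd2 was thus the higher of the pair in every Ctrl heart and the lower in every cKO heart. As a share of their summed FPKM, Kcnd2 made up 65.8% ± 4.84 in Ctrl and 39.5% ± 7.68 in cKO hearts (SD, n = 3 each). The log2 ratio differed by -1.58, with an exact permutation p of 0.1 (two-sided), the smallest that 3 against 3 hearts allow, and 0.167 after adjustment over the 5 ratios examined.

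Kcnip2 (ENSMUSG00000025221, chromosome 19, 45791839 to 45816061, minus strand), the KChIP2 gene, measured 41.9, 40.7 and 31.1 FPKM in the Ctrl hearts, against 12.98, 24.97 and 20.5 FPKM in the cKO hearts. Its groups did not overlap, and Ctrl replicate 3 and cKO replicate 2 lay closest to each other. The cKO mean was 51.4% of the Ctrl mean, a difference of -0.96 on the log2 scale (SE 0.233, adjusted p = 0.0202). The call was lost without Ctrl replicate 1 (adjusted p = 0.0648) and without Ctrl replicate 2 (0.0670), over a range of 0.0120 to 0.0670 for all its alternatives. Set against its pore partners, Kcnip2 was 9.35, 8.65 and 6.22 times the sum of Kcnd2 and Kcnd3 in Ctrl and 5.35, 9.80 and 6.33 times that sum in cKO hearts. These ratios overlapped (log2 difference -0.20, exact permutation p = 0.7), so KChIP2 and Kv4 transcripts were not shown to differ in their proportion.

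Other genes of the transient outward complex were low. Kcna4 (Kv1.4, the slow component of the current) was at 0.109 to 0.326 FPKM in Ctrl and 0.245 to 0.656 FPKM in cKO hearts, Kcnab1, a cytosolic beta subunit, stayed at or under 0.140 FPKM and Dpp6, a single-pass membrane partner of Kv4, at or under 0.0212 FPKM. None of these 3 reached the level needed for a test.

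Among the delayed rectifiers, Kcna5, Kcnh2 and Kcnq1 were lower. Kcna5 (ENSMUSG00000045534, chromosome 6, 126532551 to 126535412, minus strand), the Kv1.5 gene, measured 12.5, 13.6 and 14.6 FPKM in the Ctrl hearts, against 8.53, 7.32 and 7.63 FPKM in the cKO hearts. Hearts of each group were close together and far from the other group. The mean in cKO came to 57.8% of that in Ctrl, a difference of -0.72 on the log2 scale (SE 0.0879, adjusted p = 0.00225). Of the 50-base stretches of its transcript, 2.81% also occur in Kcna6, which was at most at 0.113 FPKM in any heart.

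Kcnh2 (ENSMUSG00000038319, chromosome 5, 24319589 to 24351604, minus strand), the mouse ERG channel gene, had the smallest adjusted p of the 9. It measured 30.4, 29.6 and 30.6 FPKM in the Ctrl hearts, against 15.8, 13.2 and 16.5 FPKM in the cKO hearts. The Ctrl hearts were nearly identical, with a coefficient of variation of 1.76%, against 11.5% in cKO. The cKO mean was 50.1% of the Ctrl mean, a difference of -0.96 on the log2 scale (SE 0.0934, adjusted p = 0.00123).

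Kcnq1 (ENSMUSG00000009545, chromosome 7, 143106362 to 143427042, plus strand), the Kv7.1 gene, measured 9.18, 8.19 and 11.1 FPKM in the Ctrl hearts, against 5.82, 7.48 and 6.33 FPKM in the cKO hearts. The groups did not overlap, though Ctrl replicate 2 and cKO replicate 2 were close. The log2 fold change was -0.47 (SE 0.128, adjusted p = 0.0298), and this call was lost in 8 of 15 alternatives, with adjusted p values of 0.0226 to 0.0841. It was lost without Ctrl replicate 1, Ctrl replicate 3, cKO replicate 1 or cKO replicate 3 (0.0700, 0.0807, 0.0841 and 0.0793). The noncoding Kcnq1ot1 overlaps 2.96% of its exonic bases on the opposite strand and was at most at 0.0313 FPKM.

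Kcne1, the single-pass subunit that joins Kcnq1 to form the slow delayed rectifier, measured 0.261, 0.658 and 0.849 FPKM in the Ctrl hearts, against 0.478, 0.959 and 0.569 FPKM in the cKO hearts, an overlap with no change past the threshold (adjusted p = 0.758). Kcnv2, whose product Kv8.2 forms no channel alone and joins other Kv subunits, measured 2.77, 2.64 and 2.63 FPKM in the Ctrl hearts, against 0.451, 0.176 and 0.615 FPKM in the cKO hearts. No cKO heart came near the Ctrl hearts. Among the 7 other Kcn genes tested its change was the largest, -1.39 on the log2(FPKM + 1) scale (SE 0.124, adjusted p = 0.000993), which understates it, as the cKO mean was 15.5% of the Ctrl mean and the log2 ratio of the means -2.69. Kcng2 encodes a further silent Kv subunit and was at 39.7 ± 3.78 FPKM in Ctrl and 40.5 ± 1.60 FPKM in cKO hearts (adjusted p = 0.810).

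**Figure D2:**
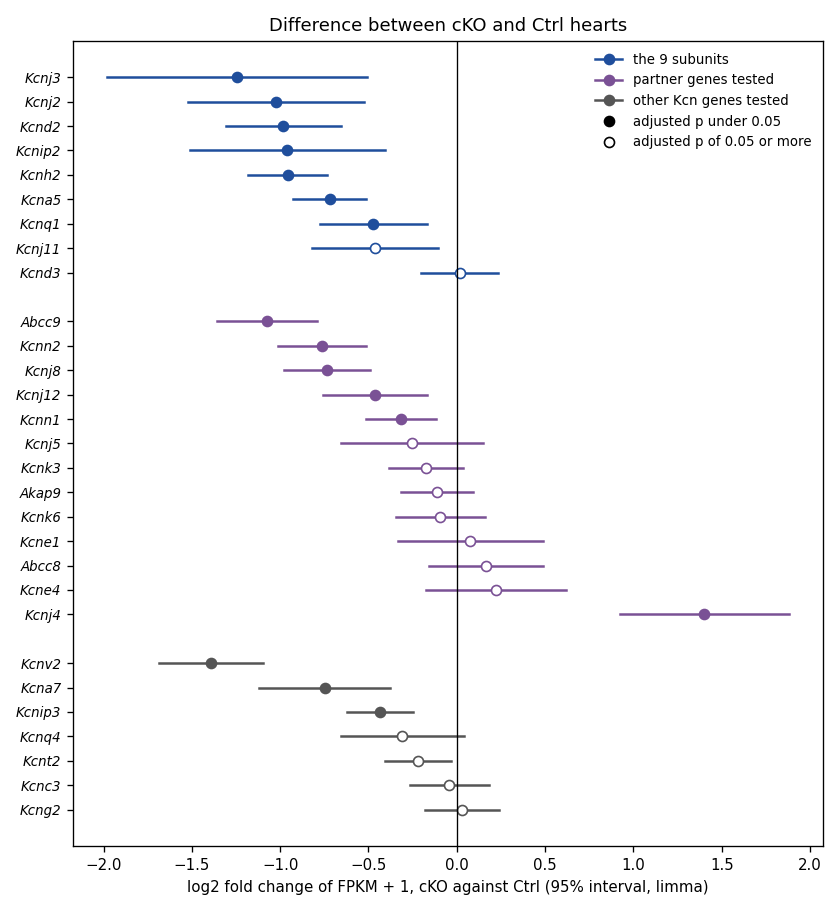
Log2 fold change of FPKM + 1 (x axis, cKO against Ctrl) with 95% limma intervals for the 9 subunits, 13 of the 14 partner genes tested and 7 other Kcn genes tested. Filled symbols have an adjusted p under 0.05; Kcnj3 is lowest of the 9 subunits at -1.24, Kcnd3 lies at 0.02, and Kcnj4 alone is past the threshold to the right at 1.40.

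Of the inward rectifiers, Kcnj2 and Kcnj3 were lower and Kcnj11 did not pass the threshold. Kcnj2 (ENSMUSG00000041695, chromosome 11, 111066164 to 111076821, plus strand), the Kir2.1 gene and main source of the resting inward rectifier current, measured 7.96, 7.68 and 12.3 FPKM in the Ctrl hearts, against 4.66, 2.90 and 4.60 FPKM in the cKO hearts. Ctrl replicate 3 stood above the rest and cKO replicate 2 below, with no overlap. The mean in cKO came to 43.5% of that in Ctrl, a difference of -1.02 on the log2 scale (SE 0.211, adjusted p = 0.0115).

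Relatives of Kcnj2 in the Kir2 family moved in both directions. Kcnj12 (Kir2.2) was lower, at 8.58 ± 1.06 against 12.2 ± 1.77 FPKM (log2 fold change -0.46, adjusted p = 0.0291), a call that did not pass without Ctrl replicate 2, Ctrl replicate 3, cKO replicate 2 or cKO replicate 3 (0.0841, 0.0753, 0.0680 and 0.0763, range over its alternatives 0.0239 to 0.0841). Kcnj4 (Kir2.3) rose instead. It measured 0.609, 0.402 and 0.346 FPKM in the Ctrl hearts, against 3.60, 1.75 and 3.44 FPKM in the cKO hearts, higher by 1.40 on the log2(FPKM + 1) scale (SE 0.202, adjusted p = 0.00347). At this low level the scale understates the change, which was 2.66 by voom on the recovered reads and 2.42 with a pseudocount of 0.1. Every cKO heart exceeded every Ctrl heart, and Kcnj4 still remained below Kcnj2 in each of them. The Kcnj2 to Kcnj12 ratio was 0.750, 0.545 and 1.03 in Ctrl and 0.478, 0.379 and 0.549 in cKO hearts, a difference that overlap at cKO replicate 3 left short of the smallest possible p (exact permutation p = 0.2, adjusted 0.25).

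Kcnj3 (ENSMUSG00000026824, chromosome 2, 55435970 to 55598145, plus strand) encodes GIRK1, which pairs with GIRK4 (Kcnj5) in the acetylcholine-activated channel of atrial and nodal cells. It measured 14.6, 9.33 and 11.2 FPKM in the Ctrl hearts, against 3.31, 2.93 and 7.69 FPKM in the cKO hearts. Ctrl replicate 1 was the highest Ctrl heart and cKO replicate 3 the highest cKO heart, without overlap. The log2 fold change was -1.24 (SE 0.310, adjusted p = 0.0223), the largest on the log2(FPKM + 1) scale and also the least precise of the 9. By voom the change of Kcnj3 (-1.39) was smaller than that of Kcnd2 (-1.48). Without Ctrl replicate 1, Ctrl replicate 3, cKO replicate 1 or cKO replicate 2 the adjusted p was 0.0701, 0.0618, 0.0689 and 0.0528 (range over its alternatives 0.00389 to 0.0701). Of its exonic bases, 31.1% lie under the opposite-strand noncoding gene Gm26794, which was at 0.0274 to 0.123 FPKM.

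Kcnj5 measured 20.2, 12.9 and 14.5 FPKM in the Ctrl hearts, against 12.3, 11.7 and 15.0 FPKM in the cKO hearts and did not pass the threshold (log2 fold change -0.25, 95% interval -0.65 to 0.15, adjusted p = 0.287). The Kcnj3 to Kcnj5 ratio was 0.722, 0.724 and 0.767 in Ctrl and 0.269, 0.2498 and 0.514 in cKO hearts. The Ctrl ratios were close together and above all cKO ratios (log2 difference -1.18, exact permutation p = 0.1, adjusted 0.167). The atrial marker Myl7 measured 679, 98.6 and 18.1 FPKM in replicates 1, 2 and 3 of Ctrl, against 71.8, 170 and 495 FPKM in those of cKO. The hearts highest in Kcnj3 within their group were thus also the highest in Myl7, but the remaining hearts went the other way. Ctrl replicate 2 was above Ctrl replicate 3 in Myl7 and below it in Kcnj3. In the same way, cKO replicate 2 was above cKO replicate 1 in Myl7 and below it in Kcnj3. A covariate made of the atrial markers included Nppa. With this covariate the log2 fold change of Kcnj3 was -1.40 (adjusted p = 0.0125) and that of Kcna5 -0.68 (adjusted p = 0.00518). In the same fit 6 members were lower, as Kcnq1 lost its call (adjusted p = 0.0605), and so did the partner genes Kcnj12 (0.0529) and Kcnn1 (0.0596).

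**Figure D3:**
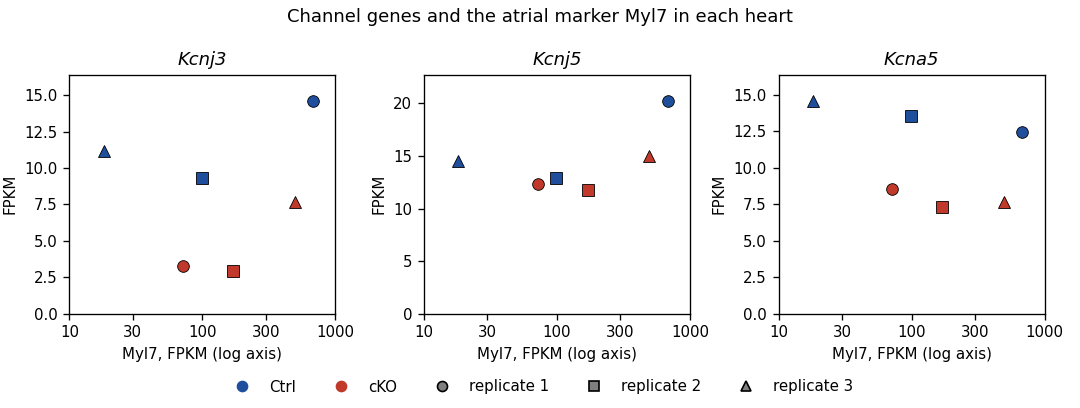
FPKM of Kcnj3, Kcnj5 and Kcna5 (y axes, from 0) against FPKM of the atrial marker Myl7 (log x axis) in 3 Ctrl and 3 cKO hearts, 1 symbol per heart. Myl7 spans 18.1 to 679 FPKM in Ctrl and 71.8 to 495 FPKM in cKO hearts, without separating the groups. Kcnj3 and Kcna5 are lower in every cKO heart than in every Ctrl heart.

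Kcnj11 (ENSMUSG00000096146, chromosome 7, 46093953 to 46100764, minus strand) encodes Kir6.2, the pore of the ATP-sensitive channel that opens when cellular ATP falls. It measured 48.9, 53.0 and 45.2 FPKM in the Ctrl hearts, against 27.8, 41.2 and 38.0 FPKM in the cKO hearts. All cKO hearts lay below all Ctrl hearts, with cKO replicate 1 apart from the other two, and the mean was 72.7% of the Ctrl mean. The gene did not pass the threshold (log2 fold change -0.46, SE 0.150, 95% interval -0.82 to -0.11, adjusted p = 0.0523). It passed without cKO replicate 2 (0.0307) and in 3 further alternatives, over a range of 0.0307 to 0.148.

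Of the sulphonylurea receptors that surround Kir6.2, Abcc9 was lower and Abcc8 did not pass the threshold. Abcc9 (SUR2, the ventricular form) measured 34.9, 44.1 and 45.1 FPKM in the Ctrl hearts, against 17.1, 20.0 and 20.0 FPKM in the cKO hearts, a difference of -1.07 on the log2 scale (SE 0.119, adjusted p = 0.00168). Abcc8 (SUR1, the form of atria and pancreatic beta cells) was at 4.48 ± 0.194 and 5.22 ± 1.22 FPKM (adjusted p = 0.388). Kcnj11 was 1.40, 1.20 and 1.00 times Abcc9 in Ctrl and 1.62, 2.06 and 1.90 times Abcc9 in cKO hearts. The ratio was higher in every cKO heart (log2 difference 0.64, exact permutation p = 0.1, adjusted 0.167).

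Kcnj8 (Kir6.1, the pore of ATP-sensitive channels in vascular muscle and pericytes) was lower too, at 9.62, 12.3 and 11.8 FPKM in cKO against 18.4, 20.5 and 19.1 FPKM in Ctrl hearts (log2 fold change -0.74, adjusted p = 0.00324). Abcc9 is also a partner of Kcnj8 in pericytes, and the pericyte marker Rgs5 was at 58.3 FPKM in cKO against 123 FPKM in Ctrl hearts on average (adjusted p = 0.00113). Of 6 smooth muscle and pericyte markers tested, 2 were higher (Acta2, Cspg4) and 2 lower (Rgs5, Notch3). None was at 0 in any heart. The 7 markers summed to 153 to 174 FPKM in Ctrl and 101 to 131 FPKM in cKO hearts. Rgs5 was the largest part in every heart, at 118 to 133 FPKM in Ctrl and 53.4 to 65.7 FPKM in cKO. The sum therefore does not stand for all 7 markers. The part of these cells in the values of Kcnj8 and Abcc9 was not tested.

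**Figure D4:**
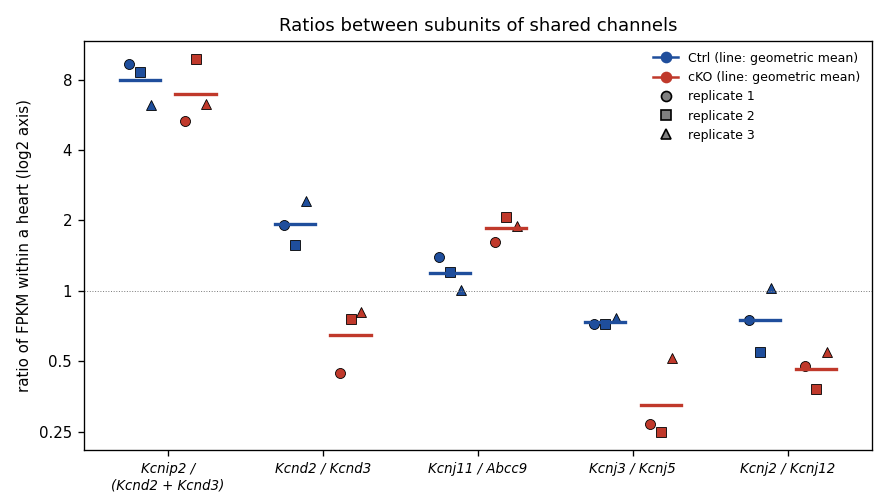
Ratios of FPKM between subunits of shared or related channels within each heart (log2 y axis), with group geometric means as lines and 1 symbol per heart. Kcnd2 to Kcnd3 and Kcnj3 to Kcnj5 are lower and Kcnj11 to Abcc9 is higher in all cKO hearts than in all Ctrl hearts, and the other 2 ratios overlap.

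More of the wider family was lower than higher. Of 30 listed partner genes (beta subunits and other cardiac potassium channels), 29 were in the table and 14 could be tested. Of the 14, 6 were lower (among them Abcc9, Kcnj8, Kcnj12, Kcnn1 and Kcnn2) and 1 higher (Kcnj4), with a median log2 fold change of -0.21. Among all genes 17.0% were lower and 16.3% higher. Kcnn2 (SK2, a small-conductance channel opened by calcium) was at 1.09 ± 0.242 against 2.54 ± 0.191 FPKM (log2 fold change -0.77 for FPKM + 1, adjusted p = 0.00304), a change of -1.22 by voom and -1.17 with a pseudocount of 0.1. Its relative Kcnn1 was at 3.61 ± 0.386 against 4.72 ± 0.138 FPKM (-0.31, adjusted p = 0.0279), and this call was lost in 9 of 15 alternatives (range 0.0249 to 0.0913), among them leaving out any heart but cKO replicate 1. The count of 6 was 3 without Ctrl replicate 2 or without Ctrl replicate 3 (Abcc9, Kcnj8 and Kcnn2 passed in every alternative). Among all 94 protein-coding genes whose symbol starts with Kcn, 27 could be tested, 15 were lower and 1 was higher, with a median log2 fold change of -0.46 (all 9 members included).

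Other ion channels and transporters of the sarcolemma were mixed. Of 20 listed genes 15 could be tested, 6 were lower and 3 higher, with a median log2 fold change of -0.30. The shares of all genes were 17.0% lower and 16.3% higher. Genes lower included Scn4b, a sodium channel beta subunit, and Cacna1c, the L-type calcium channel pore, while Slc8a1, the sodium-calcium exchanger, was among those higher.

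Of 11 listed transcription factors known to act on cardiac channel genes, 3 were lower and 1 higher, with a median log2 fold change of -0.13. Among all genes 17.0% were lower and 16.3% higher, so these counts are not read as a result about the factors. Klf15, a Kruppel-like factor described as a driver of Kcnip2 expression, measured 26.4, 29.0 and 44.5 FPKM in the Ctrl hearts, against 17.5, 12.5 and 17.7 FPKM in the cKO hearts (log2 fold change -0.999, adjusted p = 0.0137). Tbx5, a T-box factor, was lower at 6.20 ± 1.40 against 10.4 ± 0.831 FPKM (limma adjusted p = 0.0143). Irx3, an Iroquois factor of the conduction system, was lower at 11.9 ± 1.53 against 16.5 ± 1.70 FPKM (limma adjusted p = 0.0249). Clock, a core factor of the circadian clock, was higher at 4.28 ± 0.246 against 2.62 ± 0.277 FPKM (adjusted p = 0.00446). Ctrl replicate 3 was the highest heart in both Klf15 and Kcnj2 and the lowest Ctrl heart in Kcnip2.

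The promoters of 4 members are shown because Kcnd2 passed the threshold and Kcnd3 did not, and because Kcnip2 is a described target of KLF15. Kcnj2 was added because Klf15 was the gene most like it in pattern, with Gzf1 almost as close. Each line is the 250 bases before the RefSeq transcription start (GRCm38.p6), 5′ to 3′ on the gene's strand, with CCACCC on either strand (a core of Kruppel-like factor sites) and CACGTG (the E-box that CLOCK and BMAL1 bind, the same on both strands) in capitals.
Kcnd2 promoter, chr6:21215096-21215345, plus strand: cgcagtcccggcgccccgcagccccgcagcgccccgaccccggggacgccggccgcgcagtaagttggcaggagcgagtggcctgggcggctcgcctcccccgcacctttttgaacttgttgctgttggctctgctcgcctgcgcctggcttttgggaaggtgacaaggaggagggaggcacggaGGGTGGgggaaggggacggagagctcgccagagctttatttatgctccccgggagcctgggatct
Kcnd3 promoter, chr3:105451640-105451889, plus strand: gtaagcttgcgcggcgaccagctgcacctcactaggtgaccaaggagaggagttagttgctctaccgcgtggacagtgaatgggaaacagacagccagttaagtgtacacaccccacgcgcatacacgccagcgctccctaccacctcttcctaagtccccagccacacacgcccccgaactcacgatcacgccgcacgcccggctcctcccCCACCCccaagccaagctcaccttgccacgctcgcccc
Kcnip2 promoter, chr19:45816064-45816313, minus strand: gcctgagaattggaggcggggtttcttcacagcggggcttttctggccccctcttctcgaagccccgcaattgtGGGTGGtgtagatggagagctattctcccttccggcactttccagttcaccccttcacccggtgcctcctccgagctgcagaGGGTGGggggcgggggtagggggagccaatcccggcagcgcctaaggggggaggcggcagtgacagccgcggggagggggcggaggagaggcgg
Kcnj2 promoter, chr11:111065914-111066163, plus strand: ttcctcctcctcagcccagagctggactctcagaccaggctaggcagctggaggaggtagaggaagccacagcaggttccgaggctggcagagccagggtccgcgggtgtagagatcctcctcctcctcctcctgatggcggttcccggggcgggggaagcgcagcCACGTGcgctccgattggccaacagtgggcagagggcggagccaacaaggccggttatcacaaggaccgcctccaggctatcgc
RefSeq promoters were matched for 7 of the 9 members, and of Kcnj11 and Kcnq1 none was used. CCACCC occurred in 5 of the 7, against 28.1% of 32851 promoters, and the 7 promoters were rich in G and C (53.2% to 73.6%, against a median of 52.4%). The Kcnd2 and Kcnd3 promoters each held 1 copy, Kcnip2 held 2 and Kcnj2 held 0. CACGTG occurred in Kcnj2 alone of the 7, against 6.02% of all promoters, and TATAAA on either strand in 0 of the 7, against 12.4%. A match is a description of the letters and not of binding.

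For each member past the threshold, the genes with the most similar pattern were sought among 5512 protein-coding genes of at least 5 FPKM, by Pearson's r on log2(FPKM + 1) over the 6 hearts. With 2 groups of 3 hearts, r reflects the group difference first. Of those genes 9.54% had an r above 0.95 with Kcnh2, 3.25% with Kcnj2 and 0.544% with Kcnq1. Kcnj2 was closest to Klf15 (r = 0.994) and Gzf1 (0.994), Kcnip2 to Wbp1 (0.997) and Cd200 (0.995), and Kcnj3 to Timp2 (0.995) and Angpt1 (0.991). Kcnd2 was closest to B230219D22Rik (0.997) and P2ry1 (0.997), Kcnh2 to Uaca (0.9996) and Synpo (0.999), Kcna5 to Golga3 (0.998) and Epas1 (0.995), and Kcnq1 to Gimap6 (0.994) and Napa (0.994).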

How the data were processed

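The authors prepared poly-A selected libraries, aligned paired reads with HISAT2 2.0.5, counted them with featureCounts 1.5.0-p3 and tested with DESeq2 (1.16.1 by the processing notes, another version by the study's methods). The deposited values are FPKM per gene and heart. The submitters' processing notes name the build mm9, but the coordinates are those of GRCm38: of 54409 identifiers shared with GENCODE M21, 53499 had identical start and end. Reads were worked back from FPKM (100% whole within 0.01 read).

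Groups and replicate numbers came from the sample titles. Log2(FPKM + 1) was fitted with limma 3.58.1 in R 4.3.3 (trend, no covariates) after removal of genes averaging under 0.5 FPKM, with Benjamini-Hochberg adjustment and a threshold of 0.05. The deposited FPKM was the unit of the main fit, and voom on the recovered reads was an alternative. Ratios were compared by exact permutation with scipy 1.17.1. Each heart was kept as a separate sample, since no pair of a group agreed within counting noise (chi-square per gene of at least 15.7). The intervals are those of limma over 3 hearts per group.

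Named were all members, partner genes fixed by name or that were called and reached 1 FPKM in either group's mean, other Kcn genes that also had a log2 fold change of at least 1 in size, listed transcription factors past the threshold, and the 2 genes most like each member. Kcng2, Scn4b, Cacna1c, Slc8a1 and the marker genes were named beside this rule. Some genes and a sequence are not reported here, and counts include those genes. The members, lists and tests were chosen with earlier results of these data known. Tried as alternatives were: a smaller pseudocount (0.1), testing all genes, testing those averaging 1 FPKM or more, scaling by median of ratios or without mtDNA-encoded genes, no trend, voom on recovered reads, the replicate block, atrial markers as a covariate and leaving out each heart.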

Additional observations from a re-analysis of the deposited data

How the results depend on the processing

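Members lower in cKO numbered 7 by the main design, 4 without the filter on low values and between 4 and 7 when a replicate was left out, with 0 higher throughout. Partner genes lower numbered 6, and between 3 and 5 when a replicate was left out, with 1 higher throughout. Over 135 comparisons for the 9 members, 112 kept direction and side of the threshold, 16 lost the call (Kcnq1 in 8, Kcnj3 in 5, Kcnip2 in 3), 4 gained it (Kcnj11) and 3 turned sign. Kcnd2, Kcnj2, Kcnh2 and Kcna5 kept both in all 15 alternatives. The sign turned for genes near 0: Kcnd3 without Ctrl replicate 1, Ctrl replicate 3 or cKO replicate 3 (-0.0042, -0.025 and -0.024), and Kcne1 without Ctrl replicate 1 or cKO replicate 2 (-0.080 and -0.044). Over all hearts left out, Kcnd3 ranged from -0.025 to 0.076 and Kcne1 from -0.080 to 0.196. The cause was not tested.

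With the replicate number as a block 7 members were lower, Kcnj11 gaining (adjusted p = 0.0495) and Kcnq1 losing its call (0.0543), and 4 partner genes. For the ratios, exact permutation within replicate numbers gave an unadjusted p of 0.25 for 4 and 1 for Kcnip2 to its partners. With 3 pairs no p under 0.25 is possible. Deviations of same-numbered hearts correlated at -0.055, 0.17 and -0.015, so the numbers were not taken as pairs. Scaling without mtDNA-encoded genes gave 2717 genes higher and 1609 lower in place of 2110 and 2205 and moved the median of all genes to 0.05; 6 members were lower. All 5 ratios kept their direction when a replicate was left out: -1.74 to -1.30 for Kcnd2 to Kcnd3, -0.45 to -0.014 for Kcnip2 to its partners, 0.51 to 0.75 for Kcnj11 to Abcc9, -0.92 to -0.46 for Kcnj2 to Kcnj12 and -1.51 to -0.99 for Kcnj3 to Kcnj5. Genes under 1 FPKM are limited by depth and the pseudocount.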

Other observations

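Kcnk1, a two-pore-domain background channel that was too low for the test and was chosen after its values were seen, measured 0.681, 0.925 and 0.573 FPKM in the Ctrl hearts, against 0.132, 0.115 and 0.0889 FPKM in the cKO hearts, without overlap. Its relative Kcnk3 (TASK-1), the potassium channel gene with the highest level of all those listed, was at 73.3 ± 0.559 FPKM in Ctrl and 65.0 ± 6.67 FPKM in cKO hearts (limma adjusted p = 0.166). Kcna7 and Kcnip3, also chosen after their values were seen, were lower, at 1.92 ± 0.667 against 3.82 ± 0.0933 FPKM (adjusted p = 0.0121) and at 0.316 ± 0.0449 against 0.780 ± 0.0410 FPKM (adjusted p = 0.00723). Dpp10 was listed at 0 in all 6 hearts.

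Of 10 listed genes of the circadian clock loop and its output, 6 were lower and 0 higher, with a median log2 fold change of -0.78. That list left out Clock, which was counted with the transcription factors above and was higher (limma adjusted p = 0.00446). Among all genes 17.0% were lower and 16.3% higher, with a median of -0.02. The time of day at which each heart was taken is not given in the sources used here. Of 8 endothelial markers 5 were lower, with summed levels of 148 to 172 FPKM in Ctrl and 98.3 to 115 FPKM in cKO hearts. Of 8 fibroblast markers 3 were higher (Col1a1, Col3a1, Postn) and 1 lower (Dcn). Their summed levels were 162 to 189 FPKM in Ctrl and 163 to 195 FPKM in cKO hearts. Dcn was the largest part in every heart, at 98.2 to 112 FPKM in Ctrl and 55.1 to 77.6 FPKM in cKO. The similar sums thus hid changes in both directions. Of 8 conduction system markers 3 could be tested and 1, Tbx3, was lower. Of 5 leukocyte and 5 erythroid markers tested, 1 and 0 were lower, and none was higher.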
